A study of Homo sapiens with 6 samples.

Results

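The DDX and DHX RNA helicases are the enzymes named for the DEAD and DEAH letters of their ATP-binding motif. The table of HCT-116 transcripts was searched for gene names made of DDX or DHX, a number and at most 1 further letter, with the nucleic acid sensors DDX58 and DHX58 left out, and 52 of its 27918 rows (genes and assembled loci) were found. They hold 53 gene symbols, because DDX19A and DDX19B share 1 row. HCT-116 cells are an established line grown from a human colorectal carcinoma. The libraries came from cells given 10 nM of an antisense GapmeR, a DNA oligonucleotide with locked nucleic acid ends that directs RNase H to its target, by lipid transfection. There were 3 libraries for the negative control GapmeR (GapNC) and 3 for the GapmeR against the long noncoding RNA CASC9 (GapC9). RNA was taken 24 h after transfection by the text of the results and 48 h by the methods. The methods give a general rule that experiments were repeated, but not whether these libraries came from separate cultures, and p-values measure only the spread between them.

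DEAD-box and DEAH-box proteins use ATP to open short RNA duplexes or to strip proteins from RNA. They act at nearly every step in the life of an RNA, from transcription and splicing to export, translation and decay, and many of them sit in the nucleolus, where ribosomal RNA is made. Rapidly growing tumor cells express most of the family. The symbol also covers a few proteins that are DNA helicases, such as DDX11.

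Values are FPKM, the fragments of a row scaled to the length of its transcripts and to the size of the library, and fold changes are differences of log2(FPKM + 0.1), libraries labelled GapC9 minus GapNC. The steps between the lowest values, taken as 1 fragment each, put 1 fragment on 1 kb of transcript at 0.0410 to 0.0439 FPKM. For CASC9 itself the GapNC libraries gave 0, 0.0108 and 0 FPKM, and the libraries labelled GapC9 gave 0.0528, 0.107 and 0 FPKM. It was therefore not lower in the libraries labelled GapC9, but so few fragments cannot check the labels, on which every direction below rests. The epithelial genes EPCAM, KRT8, KRT18, CDH1 and CDX2 reached at least 1 FPKM, whereas the intestinal genes VIL1 and LGALS4 stayed under 0.1 FPKM and KRT20 at 0.0956 to 0.302 FPKM. Summed markers of blood cells (0.0288 to 0.113 FPKM) and endothelium (0.0173 to 0.110 FPKM) were near 0. Of the fibroblast markers, COL3A1 was at 3.03 to 4.13 FPKM, COL1A1 at 1.06 to 1.54 FPKM and PDGFRB at 0.0304 to 0.0858 FPKM. DCN and LUM had no row. The summed fibroblast markers were at 4.19 to 5.71 FPKM in the GapNC group and 4.41 to 5.31 FPKM in the GapC9 group. In a bulk sample, fewer cells of a type and less RNA per cell cannot be told apart.

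The promoters of the 2 paralog pairs whose members lay furthest apart in the comparison are shown first, because their values are set against each other below. DDX21 and its paralog DDX50, both nucleolar, are neighbors on the plus strand of chromosome 10, separated by 9280 bases. DDX50 spans 68901278 to 68946847 and DDX21 spans 68956128 to 68985073 (GRCh38, GENCODE 29). DDX39A, minus strand, chromosome 19, 14408819 to 14419383, and DDX39B (also known as UAP56), minus strand, chromosome 6, 31530219 to 31542448, bring spliced mRNA to the export receptor. The 250 bases before the transcription start of each gene (RefSeq, GRCh38.p14) are given 5′ to 3′ on the strand of the gene. They lie at chr10:68955920-68956169 (DDX21), chr10:68901065-68901314 (DDX50), chr19:14419384-14419633 (DDX39A) and chr6:31542004-31542253 (DDX39B). Capitals mark matches, on either strand, to the E-box CACGTG, the ETS core CCGGAAG, the CCAAT box, the TATA box TATAAA and the GC box GGGCGG, of which none contains another. GENCODE starts DDX21, DDX50 and DDX39B upstream of the RefSeq start. The windows of DDX21 and DDX50 therefore reach into the GENCODE gene spans, and the window of DDX39B lies wholly within one.
DDX21: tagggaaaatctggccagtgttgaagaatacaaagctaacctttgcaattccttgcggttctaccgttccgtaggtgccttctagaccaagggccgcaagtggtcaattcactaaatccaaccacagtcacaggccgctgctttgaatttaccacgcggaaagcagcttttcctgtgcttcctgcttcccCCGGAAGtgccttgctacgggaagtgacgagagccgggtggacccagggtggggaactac
DDX50: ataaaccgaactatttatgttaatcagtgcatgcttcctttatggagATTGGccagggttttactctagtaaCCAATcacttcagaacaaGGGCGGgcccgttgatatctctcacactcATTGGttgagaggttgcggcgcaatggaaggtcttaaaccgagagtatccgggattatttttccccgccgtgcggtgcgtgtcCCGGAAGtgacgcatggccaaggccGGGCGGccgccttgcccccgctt
DDX39A: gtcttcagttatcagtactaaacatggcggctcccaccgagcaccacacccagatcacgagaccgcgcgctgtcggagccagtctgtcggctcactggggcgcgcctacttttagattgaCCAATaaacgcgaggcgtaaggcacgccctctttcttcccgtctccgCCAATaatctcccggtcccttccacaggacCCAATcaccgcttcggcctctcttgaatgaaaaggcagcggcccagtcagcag
DDX39B: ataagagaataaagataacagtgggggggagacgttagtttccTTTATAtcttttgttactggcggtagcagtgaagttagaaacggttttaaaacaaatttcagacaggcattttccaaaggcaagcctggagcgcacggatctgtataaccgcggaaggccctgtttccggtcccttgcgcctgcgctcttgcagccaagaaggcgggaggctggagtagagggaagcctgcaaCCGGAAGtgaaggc
DDX21, DDX50 and DDX39B each held 1 copy of CCGGAAG, and DDX39A held none. DDX50 and DDX39A each held 3 copies of CCAAT, the other 2 windows none, and only DDX39B of these 4 held TATAAA. RefSeq windows matched 48 of the 53 member genes, with 65 windows in all. CCGGAAG lay in 20 of these 65 (30.8%), against 8.5% of all 35116 windows, and was found for 19 genes. CACGTG lay in 13.8% of the member windows and 6.3% of all, CCAAT in 41.5% and 32.0%, GGGCGG in 55.4% and 42.6%, and TATAAA in 6.2% and 10.7%. The median GC content was 60.8% in the member windows and 58.0% in all windows, and windows of expressed genes alone were not compared. These are matches of letters and do not show that a factor binds there.

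DDX21 was the most abundant, with a mean of 103 FPKM over the 6 libraries, followed by DHX9 (79.4), the row of DDX5 (58.8), DDX1 (51.9) and the row of DHX33 (46.1). Of the 52 rows, 49 reached a mean of 0.1 FPKM and were tested. Their median was 11.2 FPKM, 27 of them were at 10 FPKM or more, and the lowest was DDX60 (1.29). The 3 rows below the limit were DDX25, at 0.00567 to 0.0152 FPKM, DDX4, at 0 to 0.0227 FPKM, and DDX43, listed at 0 in 5 libraries and at 0.0107 FPKM in GapC9 replicate 3. All 3 are known from the testis or germ line. DDX3Y, the Y-linked copy of DDX3X, was among the rows tested and is counted, but its level is not given.

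**Figure D1:**
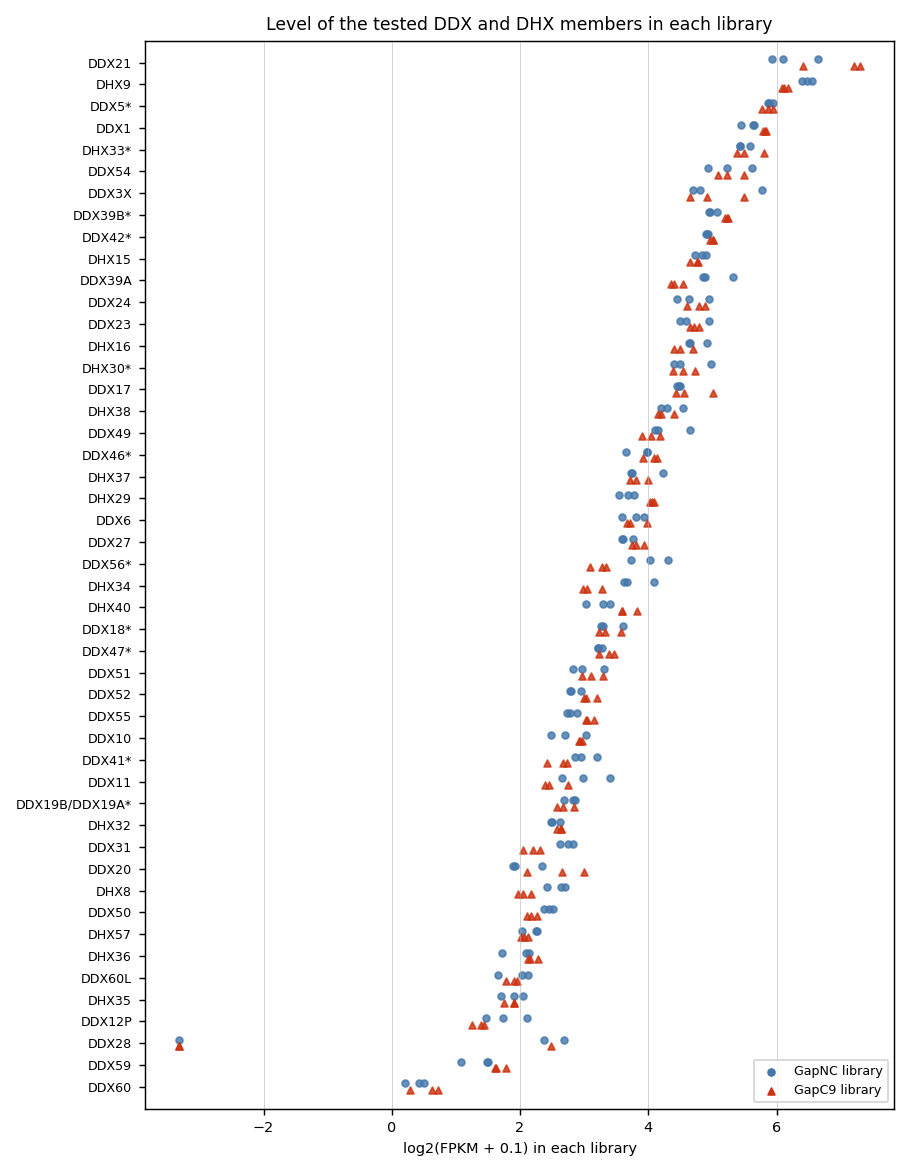
Level of 48 tested member rows in each of the 6 libraries, as log2(FPKM + 0.1) on the horizontal axis, with members ordered by mean level (circles, GapNC; triangles, GapC9; an asterisk marks a row that joins several genes; DDX3Y is not drawn). DDX21 lies at the top, DDX60 at the bottom, and DDX28 shows 3 libraries at the floor, where it was listed at 0.

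In 11 of the 52 rows the assembly had joined a member with neighboring genes, and the value cannot be assigned to the helicase alone. These rows were DDX5 with POLG2, DDX18 with AC009404.1, DDX39B with ATP6V1G2 and their readthrough transcript, DDX41 with DOK3, DDX42 with PSMC5, DDX46 with C5orf24, DDX47 with APOLD1, DDX56 with TMED4, DHX30 with uc_338, DHX33 with C1QBP and AC004148.2, and DDX19B with DDX19A and AC012184.2. A gene on the opposite strand overlaps 34 of the 53 member genes, and whether strand was used in counting is not stated.

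The comparison between the groups asks whether the helicases differ once CASC9 has been targeted. None of the 49 rows passed an adjusted p of 0.05 in limma, where 6.99% of all 16028 rows tested did (1.89% higher and 5.1% lower). None passed the fold change (at least 2 or at most 0.5, from mean FPKM) with an unadjusted p under 0.05, where 6.42% of all rows did (2.1% higher and 4.32% lower). With p taken unadjusted, 6 members were higher and 8 lower at 0.05, 28.6% of the members against 25.9% of all rows. The 14 include DDX21, DHX29, DHX40 and DDX1 on the higher side and DDX56, DHX34, DDX39A and DHX9 on the lower side. The smallest adjusted p was 0.0517, that of DDX56. The groups were separate for 8 members that were higher (16.3% of the 49, 12.6% of all rows) and 9 that were lower (18.4%, 21.6% of all rows). The family as a whole was centered near 0, with 25 log2 fold changes above 0 and 24 below, a median of 0.0099 and a range of −1.97 to 0.75. Over all rows the median was −0.08 and 43.6% were above 0. After median scaling, 36 members lay above 0 and 13 below, and the median of all rows moved from −0.08 to 0.06. In that fit 2 members, DHX29 (0.54) and DDX39B (0.38), rose at an adjusted p of 0.05 and none fell, where 3.17% of all rows rose and 2.73% fell (5.9% in all). Among rows of at least 1 FPKM, DHX9, DDX56, DDX31 and DHX8 fell and no member rose, where 8.7% of these rows fell and 3.03% rose (11.7% in all).

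The size of change that the data leave possible was set by the spread between libraries. For 43 of the 49 rows, the 95% interval of the log2 fold change (limma, not adjusted for the number of rows) lay within −1 and 1. The exceptions were DDX11, DDX20, DDX21, DDX28, DDX56 and DHX34. The standard error ranged from 0.08 (DDX42) to 2.25 (DDX28), with a median of 0.14. For 36 of the 49 rows (73.5%) the coefficient of variation was smaller in the libraries labelled GapC9 than in the GapNC libraries, where 61.6% of all rows showed the same.

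**Figure D2:**
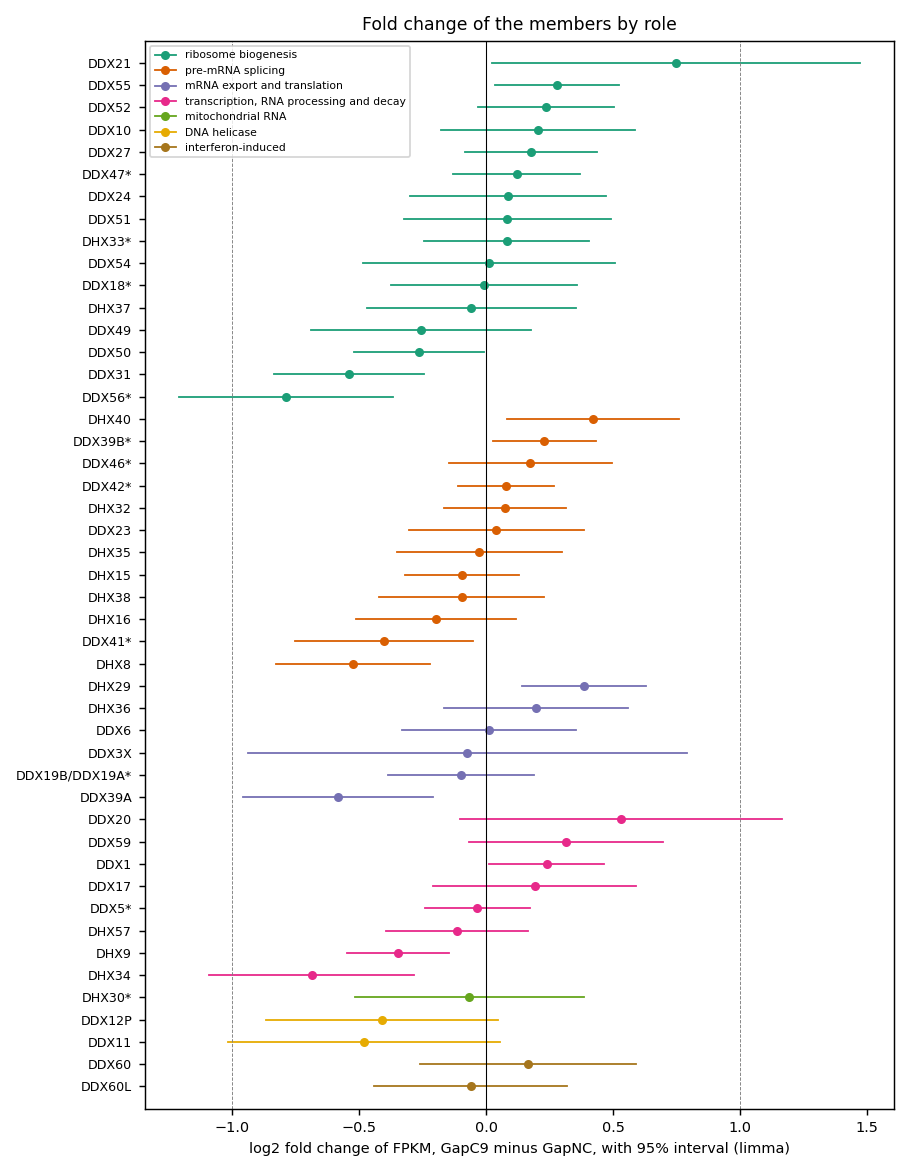
Log2 fold change of FPKM, GapC9 minus GapNC, for 47 member rows (points) with the 95% interval from limma (lines), colored and grouped by role; dashed lines mark a change of 2 in either direction and an asterisk marks a joined row. DDX28, whose interval ran from −7.46 to 3.52, and DDX3Y are not drawn. DDX21 and DDX20 reach beyond 1 on the upper side, and DDX56, DHX34 and DDX11 reach beyond −1 on the lower side.

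Ribosome biogenesis helicases made up 16 of the tested rows, with 10 log2 fold changes above 0, 6 below and a median of 0.08. DDX21, which couples transcription by RNA polymerase I to processing of ribosomal RNA, was at 99.6, 68.6 and 60.9 FPKM in the GapNC libraries, against 147, 158 and 85.1 FPKM in the libraries labelled GapC9. GapC9 replicate 3 lay below GapNC replicate 1, so that the groups overlapped. The log2 fold change was 0.75 (standard error 0.30, interval 0.02 to 1.47, limma adjusted p = 0.182), the highest among the members. Without GapNC replicate 1 the ratio of means was 2.01 (limma unadjusted p = 0.0262, adjusted p = 0.142). DDX21 was then the only 1 of the 49 members to meet the fold and p limits, which 2.36% of all rows met on the higher side. With any 1 library left out, its log2 fold change was between 0.58 and 1.03. After correction for GC content it was 0.67 (standard error 0.37, limma unadjusted p = 0.123, adjusted p = 0.287).
DDX56, a nucleolar helicase of large-subunit assembly, was at the other end. Its row, joined with TMED4, held 19.8, 16.2 and 13.2 FPKM in the GapNC libraries, against 10.1, 8.37 and 9.62 FPKM in the libraries labelled GapC9, with no overlap. The log2 fold change was −0.79 (standard error 0.17, limma adjusted p = 0.0517). DDX31, another nucleolar helicase, had 6.95, 6.03 and 6.64 FPKM in the GapNC group and 4.49, 4.04 and 4.88 FPKM in the GapC9 group, likewise without overlap (log2 fold change −0.54, limma adjusted p = 0.0542). DDX31 lies on chromosome 9 from 132592997 to 132670401 and overlaps GTF3C4 on the opposite strand. DDX18, which acts in assembly of the large subunit, and the joined rows of DDX47 and DHX33 had log2 fold changes of −0.0096, 0.12 and 0.08. Their intervals, −0.38 to 0.36, −0.13 to 0.37 and −0.24 to 0.41, all held 0.

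The neighbors DDX21 and DDX50 differed in direction. DDX50 was at 5.61, 5.07 and 5.39 FPKM in the GapNC libraries, against 4.42, 4.70 and 4.22 FPKM in the libraries labelled GapC9. The groups did not overlap, and the log2 fold change was −0.26 (standard error 0.10, limma adjusted p = 0.181). The log2 ratio of DDX21 to DDX50 was 3.80 ± 0.33 in the GapNC group and 4.82 ± 0.42 in the GapC9 group (SD, n = 3), a difference of 1.02. All 3 ratios of the GapC9 group lay above those of the GapNC group (two-sided exact permutation test, p = 0.1, the smallest that 3 libraries against 3 allow; adjusted p = 0.2 over 4 paralog pairs). GC content of their transcripts was 40.6% and 42.7%. After median scaling the log2 fold change of DDX50 was −0.12, and that of DDX21 was 0.90.

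**Figure D3:**
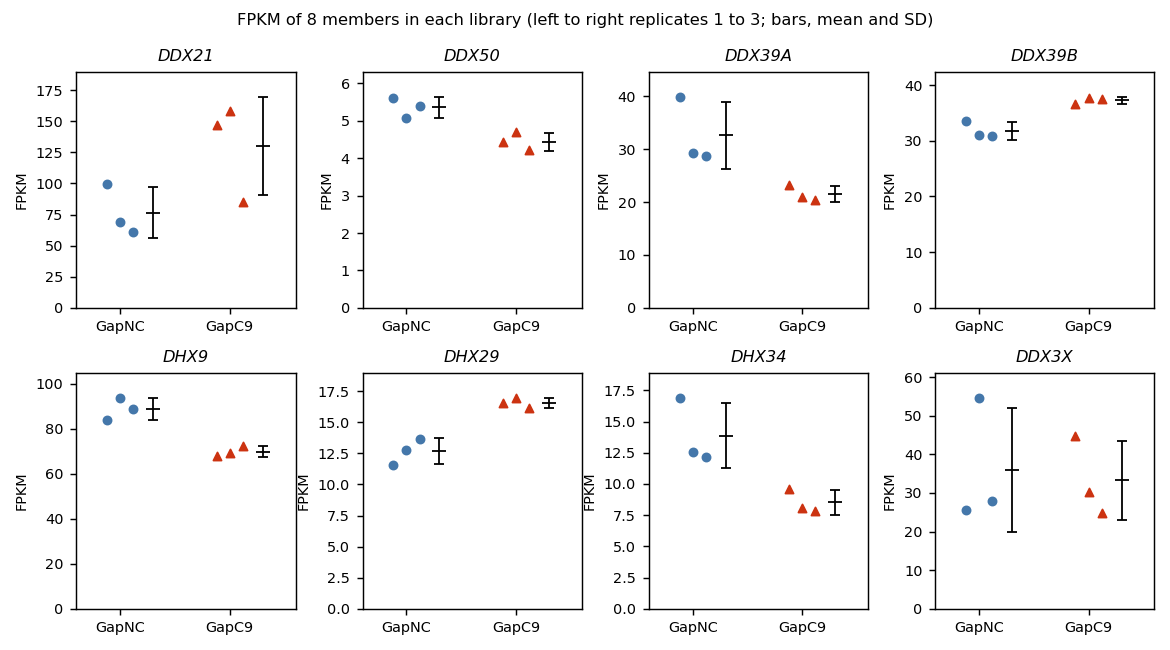
FPKM of DDX21, DDX50, DDX39A, DDX39B, DHX9, DHX29, DHX34 and DDX3X in each library (circles, GapNC; triangles, GapC9; replicates 1 to 3 from left to right) with the mean and SD of each group beside them (n = 3). The groups overlap for DDX21 and DDX3X and are separate for the other 6. Over the 49 tested member rows the groups were separate for 34.7%, against 34.2% of all rows.

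Among splicing helicases, 6 of 12 tested rows lay above 0 and 6 below, with a median of 0.0069. DHX8, which releases mature mRNA from the spliceosome, had the lowest value. It was at 6.37, 6.15 and 5.25 FPKM in the GapNC libraries, against 4.41, 3.82 and 4.01 FPKM in the libraries labelled GapC9, without overlap (log2 fold change −0.53, standard error 0.12, limma adjusted p = 0.0617). DHX40, whose role is less well established, had the highest, at 9.42 ± 1.23 FPKM in the GapNC libraries and 12.6 ± 1.19 FPKM in the libraries labelled GapC9 (SD, n = 3; log2 fold change 0.42, limma adjusted p = 0.126). The joined row of DDX41 held 9.10, 7.67 and 7.17 FPKM against 6.54, 6.24 and 5.25 FPKM, and its log2 fold change was −0.40 (interval −0.75 to −0.05). With its GC content of 59.4%, the row was at −0.16 after correction for GC content (unadjusted p = 0.106 in limma) and at −0.25 after median scaling (unadjusted p = 0.108 in limma). The joined row of DDX42 was the tightest of the family, at 30.1 ± 0.238 and 31.7 ± 0.597 FPKM (SD, n = 3), and its interval of −0.11 to 0.27 held 0 although the groups did not overlap. DDX46, a helicase of early spliceosome assembly, had a log2 fold change of 0.17 (interval −0.15 to 0.49).

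Helicases of mRNA export and translation held 7 tested rows, 4 above 0 and 3 below. DHX29, which promotes translation initiation on structured mRNAs, was at 11.6, 12.8 and 13.7 FPKM in the GapNC libraries, against 16.5, 16.9 and 16.2 FPKM in the libraries labelled GapC9. The groups were separate (log2 fold change 0.39, standard error 0.10, limma adjusted p = 0.0765). DHX29 (chromosome 5, minus strand, 55256245 to 55307722) overlaps AC026704.1 on the opposite strand. DDX39A was at 39.8, 29.3 and 28.7 FPKM in the GapNC group and at 23.1, 21.0 and 20.3 FPKM in the GapC9 group, again separate (log2 fold change −0.58, standard error 0.15, limma adjusted p = 0.0782). Its paralog DDX39B, counted here with splicing because it also acts in spliceosome assembly, showed the opposite order in its joined row, with 33.6, 30.9 and 30.8 FPKM against 36.6, 37.6 and 37.5 FPKM (log2 fold change 0.23, standard error 0.08, limma adjusted p = 0.154). The log2 ratio of DDX39A to DDX39B was 0.022 ± 0.19 in the GapNC group and −0.79 ± 0.12 in the GapC9 group (SD, n = 3), a difference of −0.82 (two-sided exact permutation test, p = 0.1, adjusted p = 0.2 over the 4 pairs). GC content was 59.6% for DDX39A and 52.3% for DDX39B, and after correction for it their log2 fold changes were −0.34 and 0.35. The joined row of DDX39B was thus about level with DDX39A in the libraries labelled GapNC and above it in each library labelled GapC9.
DDX3X, an initiation helicase whose gene lies on the X chromosome, varied within both groups. It was at 25.7, 54.5 and 27.9 FPKM in the GapNC libraries and at 44.7, 30.2 and 24.9 FPKM in the libraries labelled GapC9. The single high library of each group gave coefficients of variation of 44.5% and 30.8%, against medians of 12.6% and 9.40% over the members. Its log2 fold change was −0.07 (interval −0.94 to 0.79, limma adjusted p = 0.920). The joined row of DDX19B and DDX19A, export helicases of the nuclear pore, had a log2 fold change of −0.099 (interval −0.39 to 0.19).

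The list of transcription, RNA processing and decay held 8 tested rows, 4 above 0 and 4 below. DHX9 (RNA helicase A) was at 84.1, 93.7 and 88.9 FPKM in the GapNC libraries, against 68.0, 69.2 and 72.6 FPKM in the libraries labelled GapC9. The groups were separate (log2 fold change −0.35, standard error 0.08, limma adjusted p = 0.0624). After median scaling the log2 fold change of DHX9 was −0.19 (limma unadjusted p = 0.0707, adjusted p = 0.223). DHX9 lies on the plus strand of chromosome 1 from 182839369 to 182887751, and no other annotated gene overlaps it. DHX34, a factor of nonsense-mediated decay on chromosome 19 from 47349281 to 47382704, was at 16.9, 12.6 and 12.2 FPKM against 9.63, 8.11 and 7.82 FPKM (log2 fold change −0.69, standard error 0.17, limma adjusted p = 0.0644). DDX20, the Gemin3 subunit of the SMN complex, was at 3.62, 4.97 and 3.67 FPKM against 4.19, 6.21 and 7.85 FPKM. Its groups overlapped (log2 fold change 0.53, standard error 0.26, limma adjusted p = 0.257; 0.33 without GapC9 replicate 3). DDX1, part of the tRNA ligase complex, was at 47.7 ± 3.82 and 56.2 ± 1.10 FPKM (SD, n = 3; log2 fold change 0.24, limma adjusted p = 0.176), with log2 fold changes of 0.39 after median scaling and 0.15 after correction for GC content.
The transcriptional coregulators DDX5 and DDX17 form a paralog pair. The joined row of DDX5 was at 54.7 to 61.6 FPKM in all libraries (log2 fold change −0.035, interval −0.24 to 0.17). DDX17 was at 21.5 to 23.5 FPKM in 5 libraries and at 32.1 FPKM in GapC9 replicate 3. The log2 ratio of DDX17 to DDX5 was −1.43 ± 0.066 and −1.20 ± 0.38 (SD, n = 3; two-sided exact permutation test, p = 0.5, adjusted p = 0.5).

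The remaining lists held 2 tested rows each. Of the helicases of mitochondrial RNA, DHX30 was at 24.8 ± 5.57 and 23.5 ± 2.90 FPKM (SD, n = 3; log2 fold change −0.066, interval −0.52 to 0.38). DDX28 was at 6.36 and 5.10 FPKM in GapNC replicates 1 and 2 and at 5.48 FPKM in GapC9 replicate 1, and was listed at 0 in the other 3 libraries. Its gene is 2169 bases long, as is its only listed transcript, so that it has no intron, and DUS2 overlaps it on the opposite strand of chromosome 16 (68021274 to 68023442). An exact 0 can be a failed estimate, and its log2 fold change of −1.97 (standard error 2.25) carries little information. DDX11, a DNA helicase of sister chromatid cohesion, was at 10.5, 6.17 and 7.79 FPKM against 6.64, 5.13 and 5.36 FPKM (log2 fold change −0.48, limma adjusted p = 0.229). DDX12P, a pseudogene copy of DDX11, was at 3.36 ± 0.787 and 2.46 ± 0.165 FPKM (SD, n = 3; log2 fold change −0.41, limma adjusted p = 0.230). Without GapNC replicate 1 the log2 fold changes of DDX11 and DDX12P were −0.29 and −0.24, and after correction for GC content they were −0.28 and −0.19. Reads of these near-identical sequences can be exchanged, so neither value is certain. The interferon-induced DDX60 and its neighbor DDX60L on chromosome 4 had log2 fold changes of 0.17 and −0.061. Their log2 ratio was −1.64 ± 0.082 and −1.40 ± 0.16 (SD, n = 3; two-sided exact permutation test, p = 0.2, adjusted p = 0.267).

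Fold changes of the members followed the GC content of their transcripts, which ranged from 37.3% (DDX60) to 63.0% (DHX34). Spearman's correlation across the 49 rows between GC content and log2 fold change was −0.58, against −0.33 over 10117 rows of at least 1 FPKM. These rows share the same 6 libraries and are not independent, and no p is given. Of 20 members under 45% GC, 13 lay above 0, with a median of 0.19. Of 14 members over 55%, only DDX51 and DDX54 lay above 0, and the median was −0.33. Values of single libraries, from which these fold changes are built, are given next and are no separate evidence. The deviation of a member from its mean over the 6 libraries correlated with GC content at 0.83 in GapNC replicate 1, 0.016 in replicate 2 and −0.16 in replicate 3. In the libraries labelled GapC9 the values were 0.093, −0.65 and −0.63. Over the 10117 rows they were 0.62, 0.0096 and −0.10 in the GapNC libraries, and 0.029, −0.34 and −0.38 in the libraries labelled GapC9. Without GapNC replicate 1, the correlation of the members' fold changes with GC content was −0.29, against −0.14 over 10112 rows of at least 1 FPKM. The part of GC content in the differences between the groups was not tested further.

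When each library was corrected for GC content, 11 of the 49 members passed an adjusted p of 0.05 (22.4%), where 14.5% of all rows did. On the higher side there were 5 (6.71% of all rows), namely DDX55 (log2 fold change 0.39), DDX39B (0.35), DDX51 (0.34), DHX29 (0.31) and DDX27 (0.30). On the lower side there were 6 (7.82% of all rows), namely DDX56 (−0.61), DHX8 (−0.46), DDX31 (−0.42), DHX9 (−0.38), DHX34 (−0.37) and DDX39A (−0.34). The limma adjusted p ranged from 0.0142 (DDX39B) to 0.0421 (DDX31). DDX27, DDX31, DDX51 and DDX55 were named after their values were seen. DDX27, DDX51, DDX55 and DDX31 act in the nucleolus, so that ribosome biogenesis helicases were found on both sides. The difference of DHX34 shrank from −0.69 to −0.37 and that of DDX39A from −0.58 to −0.34, whereas that of DHX9, with a GC content of 43.0%, was −0.35 before and −0.38 after. The correlation between GC content and fold change over the members was −0.19 after the correction.

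**Figure D4:**
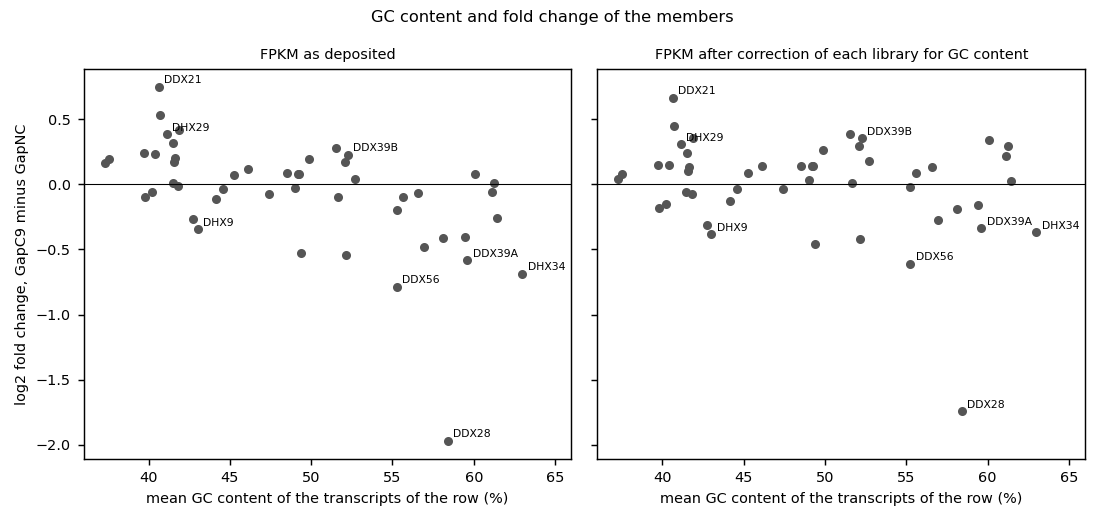
Log2 fold change, GapC9 minus GapNC, of 48 member rows (vertical axis) against the mean GC content of their transcripts in percent (horizontal axis), from FPKM as deposited (left) and after correction of each library for GC content (right). Each point is a row and DDX3Y is not drawn. The slope from upper left to lower right in the left panel is weaker in the right panel, while DDX56 and DHX9 stay below 0 and DDX39B and DHX29 above it.

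Helicases outside the DDX and DHX names and known cofactors were given beside the family. Of 16 tested rows of related helicases (the EIF4A translation helicases, SNRNP200, AQR, UPF1 and others), 1 rose and none fell at an adjusted p of 0.05, with a median log2 fold change of −0.03. That share is near the 6.99% of all rows. Unadjusted, 3 were higher and 4 lower at 0.05 (43.8%, against 25.9% of all rows). The one that rose was EIF4A2, a DEAD-box initiation factor, at 42.8, 52.1 and 46.1 FPKM in the GapNC libraries, against 77.5, 84.5 and 82.6 FPKM in the libraries labelled GapC9 (log2 fold change 0.80, standard error 0.10, limma adjusted p = 0.0193). Of 43 tested rows of cofactors (proteins with G-patch or MIF4G domains, and partners of DDX6, DDX3X, DDX19 and DDX20), none rose and 3 fell, with a median of 0.014. That share too is near the 6.99% of all rows, of which 5.1% were lower. Unadjusted, 7 were higher and 7 lower at 0.05 (32.6%, against 25.9% of all rows). By the fold and unadjusted p limits, 1 cofactor row was higher, GPATCH2L joined with AC016526.2, named after its values were seen. It was at 0.956, 0.764 and 0.569 FPKM against 3.44, 0.907 and 4.27 FPKM (log2 fold change 1.56, limma adjusted p = 0.159), and GapC9 replicate 2 lay below GapNC replicate 1. EIF4G3, a scaffold that binds eIF4A, fell from 5.40 ± 0.271 to 3.03 ± 0.253 FPKM (SD, n = 3; log2 fold change −0.81, limma adjusted p = 0.0238). NUP214, the nucleoporin that binds DDX19, fell from 5.21 ± 0.117 to 3.64 ± 0.216 FPKM (SD, n = 3; log2 fold change −0.51, limma adjusted p = 0.0438). The third was GPATCH3, whose row is joined with GPN2 (log2 fold change −0.59, limma adjusted p = 0.0381).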

How the data were processed

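RNA-sequencing of poly(A) RNA was analyzed from 6 HCT-116 libraries, 3 per group, grouped by the transfection given in the sample records. The authors aligned reads with HISAT and computed FPKM with StringTie, and deposited 1 table of FPKM values without counts. The submitters' processing notes name HISAT2 2.0 and StringTie 1.3.0. They also name Bowtie 0.12.2 and the mouse build mm8. The human genome build is not given in the sources used here. Columns left unused numbered 0. FPKM is relative to the whole library, so that a rise in abundant RNAs lowers the others.

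No value of the table was changed. In R 4.3.3, limma 3.58.1 (lmFit, eBayes with trend) was fitted to log2(FPKM + 0.1) of the 16028 rows whose mean reached 0.1 FPKM, with Benjamini-Hochberg adjustment over all of them. The script was tested on simulated data. GC content came from the GENCODE 29 transcripts listed in each row (27771 of 27918 rows), and promoters from RefSeq. The GC correction subtracts a lowess curve (span 0.3) from each library. The members, lists and alternatives were chosen with earlier results of these data known. Members were named if they passed a threshold, were among the 5 most abundant, lay at either end of their role list, were listed at 0 in some libraries only, shared a row, or formed a paralog pair. DDX25, as a row under the limit, and DDX54, by its GC content and fold change, were named outside this rule, as were DDX27, DDX31, DDX51 and DDX55. Members of the other lists were given with values only past the adjusted threshold, except GPATCH2L, which met the fold and unadjusted p limits. Protein sequences were not used here. The table holds no counts, so the counting error of a value is not known.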

Additional observations from a re-analysis of the deposited data

How the results depend on the processing

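With 17 alternatives, each changing 1 choice, the number of members past an adjusted p of 0.05 stayed at 0 in both directions, except in these 3. With a mean of at least 1 FPKM, 4 members were lower (DDX31, DDX56, DHX8 and DHX9, where 8.7% of all rows were lower). After median scaling, 2 were higher (DDX39B and DHX29, 3.17% of all rows), and after the GC correction 5 were higher and 6 lower. The limit of 1 FPKM left fewer rows to adjust over, but the unadjusted p of these 4 members in limma moved as well. It went from 0.00415 to 0.00328 for DDX31 and from 0.00545 to 0.00430 for DHX8. For DDX56 it went from 0.00379 to 0.00400, and for DHX9 from 0.00563 to 0.00573. The cause of the shifts in the 3 alternatives was not tested. The median log2 fold change of the members, 0.0099, was 0.16 after median scaling, 0.065 after quantile normalization and 0.084 after the GC correction. With 1 library left out, it was between −0.018 (without GapNC replicate 3) and 0.063 (without GapC9 replicate 2), and −0.0055 without GapC9 replicate 1. Of the 6 fits with 1 library left out, 5 called few rows of any kind, 0.212% to 0.656% of all rows. In those 5, 0 members past the adjusted p says little. The fit without GapNC replicate 1 called 5.09% of all rows, against 6.99% in the main fit, and 0 members. In the 6 fits with 1 library left out, 0 to 1 members met the higher fold limit and 0 the lower one.

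With the replicate number as a block, 0 members and 0 of all rows passed, and the median stayed at 0.0099. Deviations of same-numbered libraries correlated at 0.097, 0.040 and 0.024 across rows. Those of differently numbered libraries correlated at −0.093 (GapNC replicate 1 with GapC9 replicate 2) to 0.058 (GapNC replicate 3 with GapC9 replicate 2). Whether same-numbered libraries share more than the number was not tested. The 3 libraries per group limit the precision of all members.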
